A study of Mus musculus with 4 samples.

Results

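The 33 genes described here make cholesterol and fatty acids or control that synthesis, and their transcripts were measured in mouse embryonic stem cells before and after degradation of RPB3, a core subunit of RNA polymerase II encoded by Polr2c. They were chosen by symbol, from a list of sterol synthesis enzymes, regulators of sterol regulatory element-binding proteins (SREBPs) and lipogenic SREBP targets. The rule uses no measured value, but the list was drawn up with earlier results of these data known. All 33 had a row among the 30282 genes of the table, and all 33 passed the minimum mean of 10 over the 4 libraries that left 14928 genes to test. They comprise 7 enzymes of the mevalonate pathway, 11 enzymes from squalene to cholesterol, 1 enzyme of the prenyl branch, 5 genes of SREBP control, 3 sterol transport genes and 6 lipogenic genes.

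V6.5 is a mouse embryonic stem cell line, here cultured in serum with CHIR99021 and PD0325901, which inhibit GSK3 and MEK. Every library came from cells whose RPB3 carried an mAID-GFP degron, and all received doxycycline at 1 µg/ml for 12 h to induce TIR1, the plant F-box protein that recruits a degron-tagged protein for destruction. The untreated group (2 libraries) received nothing more, so "untreated" means doxycycline alone, and the IAA group (2 libraries) was then given 500 µM of the auxin IAA (indole-3-acetic acid) for 12 h, per the sample labels. Another sentence of the labels speaks of depletion for 1 h, and the difference is unresolved. No library of cells without the degron treated with IAA was analysed here, so RPB3 loss and any other effect of IAA cannot be told apart. The sources used here do not say whether the degron line is 1 clone or whether the libraries of a group came from separate cultures. The p-values therefore measure only how these libraries vary, which may be technical.

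Cholesterol is built from acetyl-CoA by the mevalonate pathway, whose isoprenoid products are joined to squalene, closed into lanosterol and trimmed to cholesterol. The same isoprenoids feed protein prenylation, dolichol and ubiquinone. SREBPs are membrane-bound transcription factors: when sterols are low, SCAP carries them from the endoplasmic reticulum to the Golgi, where proteases free the active factor, and INSIG proteins hold SCAP back when sterols are plentiful. SREBP2 mainly drives sterol synthesis genes and SREBP1 mainly drives fatty acid synthesis genes, often together with the factors NF-Y and Sp1 bound nearby.

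Promoter windows from RefSeq (GRCm38.p6, 250 bases before to 50 after the start, 300 in all) matched 26 of the 33 genes. The 200 bases before the start are printed for 5 of them, none of which overlaps an annotated exon. Hmgcs1 has the single match of the sterol regulatory element core, Mvk and Mvd are mevalonate enzymes with several NF-Y boxes, Fasn is a lipogenic gene with a pair of overlapping NF-Y boxes, and Lpin1 has no match of any motif searched. They lie at chr13:119690151-119690350 (Hmgcs1, plus strand), chr5:114444069-114444268 (Mvk, plus strand), chr8:122443423-122443622 (Mvd, minus strand), chr11:120824548-120824747 (Fasn, minus strand) and chr12:16610967-16611166 (Lpin1, minus strand). Each is written 5′ to 3′ on the gene's strand, with matches on either strand to TCACNCCAC (sterol regulatory element core), CCAAT (NF-Y), GGGCGG (Sp1) and CACGTG (E-box) in capitals.
Hmgcs1: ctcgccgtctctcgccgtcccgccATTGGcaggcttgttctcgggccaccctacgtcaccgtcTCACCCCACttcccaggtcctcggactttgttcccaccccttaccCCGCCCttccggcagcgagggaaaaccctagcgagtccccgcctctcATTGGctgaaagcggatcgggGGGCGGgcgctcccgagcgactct
Mvk: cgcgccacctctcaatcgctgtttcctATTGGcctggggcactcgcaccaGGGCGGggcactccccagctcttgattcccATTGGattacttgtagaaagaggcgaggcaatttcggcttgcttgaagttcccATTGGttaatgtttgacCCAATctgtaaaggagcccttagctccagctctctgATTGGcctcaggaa
Mvd: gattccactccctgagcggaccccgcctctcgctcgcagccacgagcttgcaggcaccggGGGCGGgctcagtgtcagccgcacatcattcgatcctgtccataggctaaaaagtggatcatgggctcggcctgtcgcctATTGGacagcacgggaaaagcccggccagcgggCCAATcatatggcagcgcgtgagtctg
Fasn: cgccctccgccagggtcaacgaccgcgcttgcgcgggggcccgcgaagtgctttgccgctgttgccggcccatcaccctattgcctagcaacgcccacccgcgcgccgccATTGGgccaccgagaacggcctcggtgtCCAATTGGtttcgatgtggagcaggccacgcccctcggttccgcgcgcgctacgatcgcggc
Lpin1: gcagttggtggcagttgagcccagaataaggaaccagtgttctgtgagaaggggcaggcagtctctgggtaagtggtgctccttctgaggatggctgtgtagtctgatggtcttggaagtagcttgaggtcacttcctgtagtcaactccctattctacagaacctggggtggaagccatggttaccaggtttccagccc

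The 4 libraries held 8724737 and 8794680 recovered reads (untreated) and 9194432 and 8779401 (IAA). All 12 markers of embryonic stem cells were present in every library, the lowest at 2114 normalised reads. Their sum was 67954 and 69478 untreated and 73570 and 71026 with IAA, without overlap, and single markers lay on either side: Klf4 was at 3409 and 3429 against 4941 and 4869, Tbx3 at 2189 and 2114 against 3177 and 3223, and Dppa5a at 7356 and 7578 against 6116 and 5524 (these 3 were named after their values were seen). Summed markers of feeder fibroblasts were at 566 and 652 untreated and 491 and 491 with IAA. Of these 10 markers 6 were in the table, from Col3a1 at 0 to 2 up to Pdgfrb at 223 to 253. Summed mesodermal and neural markers were at 1706 and 1880 against 2180 and 2044, but single markers differed. Nes was at 661 and 749 against 1055 and 1003, while Tubb3 overlapped (880 and 961 against 941 and 872). Pax6 was lower, at 14 and 9 against 7 and 4. These genes too were named after their values were seen. Primitive endoderm (264 and 235 against 221 and 256) and trophoblast markers (1161 and 1156 against 1169 and 1130) overlapped between the groups. The part of these marker differences in the results was not tested. Polr2c mRNA was at 2805.5 ± 112 (SD, n = 2) untreated and 3200 ± 59.4 (n = 2) with IAA, a log2 change of 0.19 (SE 0.04, limma adjusted p = 0.00116). Because the degron removes the protein, this mRNA does not check the labels.

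Transcripts of 24 of the 33 genes fell with IAA and none rose at an adjusted p under 0.05 (limma, 2 libraries against 2). The falls were small: the largest, of the sterol C4 demethylase Msmo1, was 34.4%, and the median log2 change of the 33 genes was -0.26. Of all tested genes, 28.9% were called lower and 11.1% higher, with a median of -0.11, so a fall was also common outside these genes. Of the 33 genes, 31 had a negative log2 change, beside 9405 of all 14928 tested genes, and 27 lay below the median of all tested genes. At an unadjusted p under 0.05 (limma) there were 25 lower and 1 higher (Ggps1), beside 7165 of all tested genes in either direction. With limma-voom on recovered reads 24 fell and 0 rose, where 30% of all tested genes fell and 11.7% rose. In bulk RNA, fewer cells that express a gene and less RNA per cell cannot be told apart.

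The number called depends on how the libraries are scaled. The deposited values were divided by the authors' size factors, which lower the IAA libraries relative to the untreated ones. Median-of-ratios factors, computed from the recovered reads so that the typical gene stays level, moved the median of all tested genes by 0.10 to -0.01 and moved the calls to 20.5% lower and 20.3% higher. Among the 33 genes 16 then fell, 2 rose (Acat2 and Ggps1), and the median was -0.16. Other factors move every gene by nearly the same amount. Relative to the median of all tested genes, the median of the 33 was therefore bound to be alike, at -0.15 under both scalings. In the authors' deposited table, 11 of the 33 had an adjusted p under 0.05 and were lower, and 0 were higher, where 9.57% of 11495 genes were lower and 2.47% higher. Those 11 were Hmgcs1, Mvd, Lss, Cyp51, Msmo1, Dhcr7, Srebf1, Srebf2, Stard4, Acaca and Scd1. All 33 carry the label unchanged in that table, which labels 67 genes down and 14 up.

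**Figure D1:**
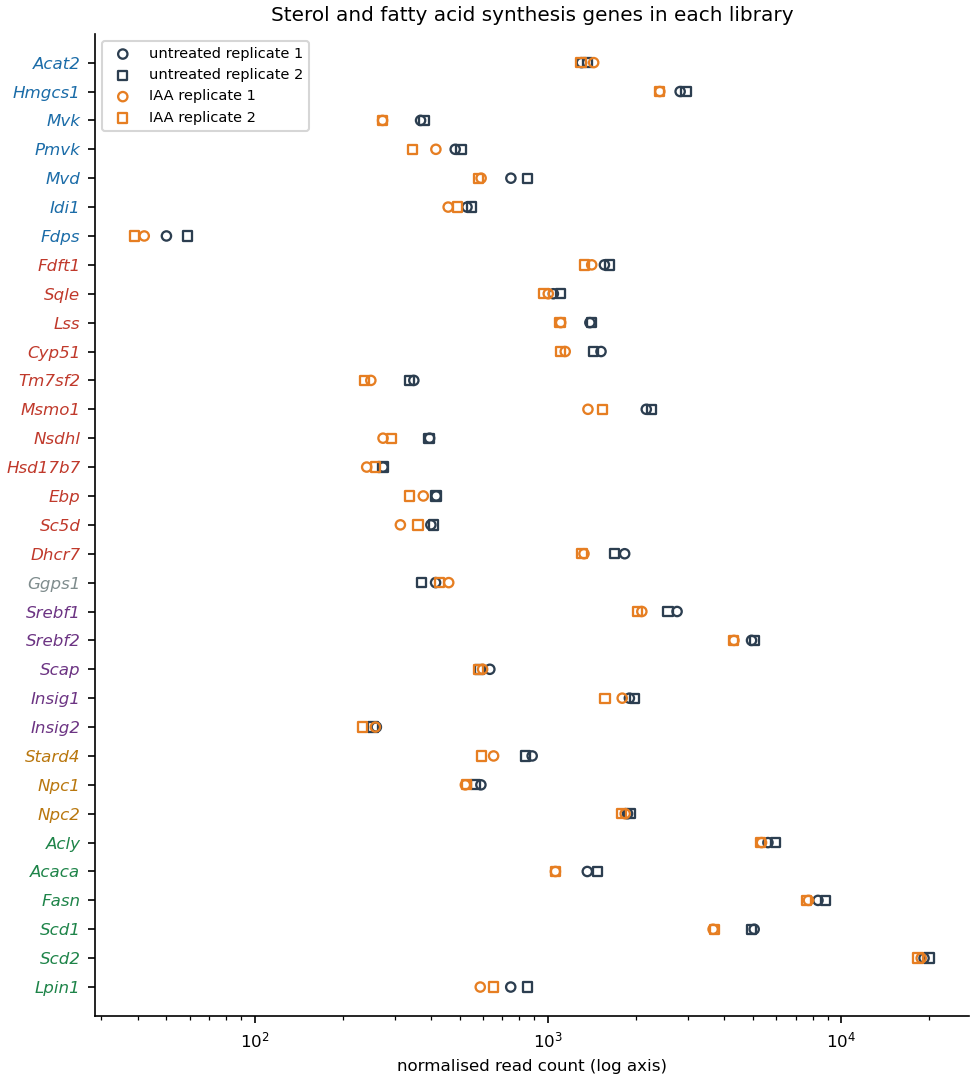
Normalised read counts of the 33 genes in each of the 4 libraries (log axis), grouped by role, with 1 point per library. The points of the 2 groups do not overlap for 30 genes, while they overlap for Acat2, Scap and Insig2.

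In the plot of values by library, replicates of a group lie close together: the median absolute log2 difference between replicates over the 33 genes was 0.06 in both groups. The groups did not overlap for 30 genes, of which 29 were lower with IAA and 1, Ggps1, was higher. Of all tested genes, 45.6% were lower and 22.5% higher without overlap. A test of 2 libraries against 2 on a single value cannot reach an exact permutation p below 0.333 (two-sided), so the calls rest on the fit across all genes. With any 1 library left out, that fit called 0 genes on the rounded values (limma, 17 to 21 of the 33 at an unadjusted p under 0.05), and 19 to 22 of the 33 lower on unrounded values, which the leave-one-out values given here use.

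The mevalonate pathway begins with the condensation of acetyl-CoA units. Acat2, the cytosolic thiolase of the first step, was at 1302 and 1366 normalised reads untreated and 1433 and 1298 with IAA. These values overlap, and the log2 change was 0.03 (SE 0.06, adjusted p = 0.680). Its sign turns with the library left out (-0.002 without untreated replicate 1 and -0.04 without IAA replicate 1, unrounded values), and under median-of-ratios scaling Acat2 rose by 0.13 (adjusted p = 0.0296). Hmgcs1, the HMG-CoA synthase of the next step, was at 2826 and 2961 untreated and at 2409 and 2398 with IAA, and fell by 0.27 on the log2 scale (SE 0.04, adjusted p = 4.38e-05). The pair thus stand at the head of the pathway with different values. The IAA values of Acat2 lay on either side of its untreated values, and those of Hmgcs1 lay below its untreated values in both IAA libraries.

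The kinases and the decarboxylase that turn mevalonate into isopentenyl diphosphate also fell. Mevalonate kinase, Mvk, was at 368 and 378 untreated and at 273 in both IAA libraries, a log2 change of -0.45 (SE 0.09, adjusted p = 3.08e-04). The phosphomevalonate kinase Pmvk was at 483 and 505 against 415 and 345 (-0.38, SE 0.09, adjusted p = 0.00141), and without IAA replicate 2 its change was -0.25 (adjusted p = 0.0416, unrounded values). The decarboxylase Mvd was at 748 and 854 against 592 and 579 (-0.45, SE 0.07, adjusted p = 3.70e-05). All 3 lay below both untreated values in both IAA libraries, and all 3 also fell under median-of-ratios scaling (-0.35, -0.28 and -0.35).

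Of the last 2 enzymes of this pathway, Idi1 fell at the deposited scaling and Fdps did not pass the test. Idi1, the isomerase that makes dimethylallyl diphosphate, was at 530 and 548 against 457 and 492 and fell by 0.18 (SE 0.07, adjusted p = 0.0489). That call was lost under median-of-ratios scaling (-0.08, adjusted p = 0.382) and, on unrounded values, without untreated replicate 1, untreated replicate 2 or IAA replicate 1 (adjusted p = 0.0563, 0.168 and 0.302). Fdps, the farnesyl diphosphate synthase, had the lowest level per kilobase of exon of the 33, with 50 and 59 normalised reads untreated and 42 and 39 with IAA. Its log2 change of -0.42 did not pass the test (SE 0.21, adjusted p = 0.130, 95% interval -0.86 to 0.03). Over the 7 mevalonate genes 5 fell and 0 rose with a median of -0.38, or 4 fell and 1 rose under median-of-ratios scaling. The shares called lower were 71.4% and 57.1%, beside 28.9% and 20.5% of all tested genes.

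Ggps1 makes geranylgeranyl diphosphate, a prenyl donor for small GTPases, and leads away from sterols. It was at 414 and 370 untreated and at 459 and 426 with IAA, so both IAA libraries lay above both untreated ones. The log2 change of 0.18 did not pass the test (SE 0.08, adjusted p = 0.0946), but under median-of-ratios scaling Ggps1 rose by 0.28 (adjusted p = 0.00339). At the deposited scaling, on unrounded values, its change was 0.26 without untreated replicate 1 (adjusted p = 0.0270), 0.10 without untreated replicate 2 (adjusted p = 0.469), 0.12 without IAA replicate 1 (adjusted p = 0.395) and 0.23 without IAA replicate 2 (adjusted p = 0.0773). Among the 33 genes only Ggps1 and Acat2 had positive log2 changes at the deposited scaling.

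Of the 11 enzymes from squalene to cholesterol, 9 fell and 0 rose (median -0.34), and 6 fell and 0 rose under median-of-ratios scaling. Called lower were thus 81.8% and 54.5%, beside 28.9% and 20.5% of all tested genes. Fdft1, the squalene synthase that commits carbon to sterols, was at 1559 and 1622 against 1411 and 1335 and fell by 0.21 (SE 0.05, adjusted p = 0.00222), a call lost under median-of-ratios scaling (-0.11, adjusted p = 0.0598). Squalene epoxidase, Sqle, a rate-controlling step, was at 1044 and 1103 against 1003 and 971, and its change of -0.12 did not pass (SE 0.06, adjusted p = 0.0929, 95% interval -0.24 to 0.00). Lss, which closes the ring to lanosterol, was at 1391 and 1406 against 1106 and 1101 (-0.34, SE 0.05, adjusted p = 2.34e-05). Within these first steps the fall of Lss was several times the difference between its replicates, while the values of Sqle lay close to its untreated range.

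Msmo1 had the largest fall of the 33 genes. It lies on chromosome 8 at 64718139 to 64733792 (GRCm38, minus strand), and its product removes the methyl groups at carbon 4 of the sterol. Its values were 2166 and 2254 untreated and 1370 and 1532 with IAA, or 2210 ± 62.2 against 1451 ± 114.6 (SD, n = 2 each). The log2 change was -0.61 (SE 0.05, adjusted p = 3.24e-08) at the deposited scaling and -0.51 under median-of-ratios scaling. Every IAA value was below every untreated value by far more than the replicates differed.

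Of the partner enzymes of C4 demethylation, Nsdhl was called lower and Hsd17b7 was not, and the difference between their changes was not tested. Nsdhl, the sterol dehydrogenase of that complex, was at 395 and 393 against 274 and 293 (-0.47, SE 0.08, adjusted p = 1.66e-04, 95% interval -0.65 to -0.30). Hsd17b7, its ketoreductase, was at 274 in both untreated libraries and at 241 and 258 with IAA, and its change of -0.14 did not pass (SE 0.09, adjusted p = 0.270, 95% interval -0.33 to 0.06). Cyp51, which removes the methyl group at carbon 14, was at 1518 and 1431 against 1146 and 1103 (-0.39, SE 0.05, adjusted p = 7.32e-06). Tm7sf2, the reductase that follows it, was at 349 and 337 against 249 and 237 (-0.50, SE 0.09, adjusted p = 1.93e-04). Nsdhl, Cyp51 and Tm7sf2 also fell under median-of-ratios scaling (-0.37, -0.29 and -0.40).

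The late enzymes shift and reduce the double bonds of the sterol nucleus. Dhcr7, the final reductase of the Kandutsch-Russell branch, was at 1828 and 1685 against 1328 and 1308 and fell by 0.41 (SE 0.05, adjusted p = 2.69e-06; by 0.31 under median-of-ratios scaling). Ebp, the sterol isomerase, was at 416 and 415 against 376 and 337 (-0.22, SE 0.08, adjusted p = 0.0370). Sc5d, the desaturase between them, was at 399 and 408 against 314 and 361 (-0.26, SE 0.09, adjusted p = 0.0207). The calls of Ebp and Sc5d were lost under median-of-ratios scaling (adjusted p = 0.240 and 0.130). On unrounded values Ebp was also lost without untreated replicate 1, untreated replicate 2 or IAA replicate 2 (adjusted p = 0.0761, 0.0727 and 0.309), and Sc5d without untreated replicate 2 or IAA replicate 1 (adjusted p = 0.0562 and 0.260).

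**Figure D2:**
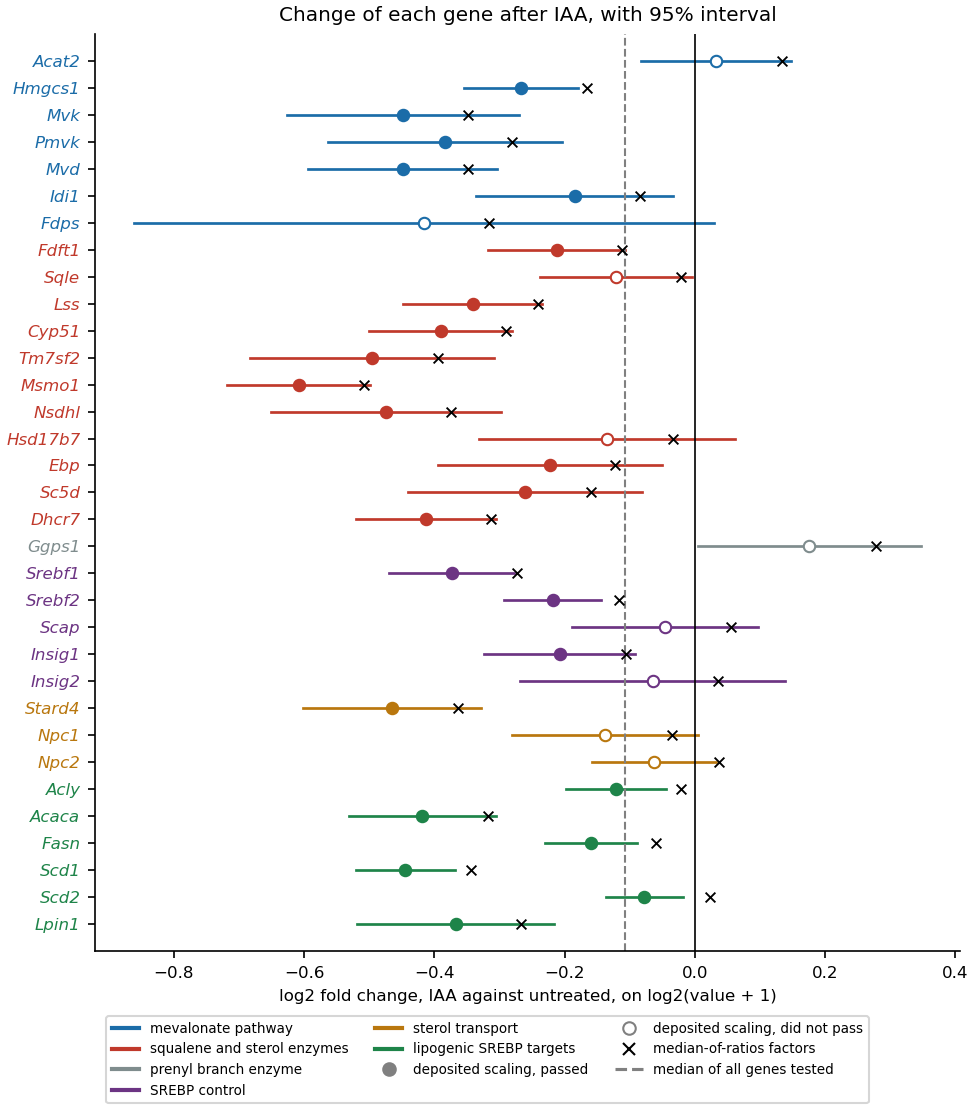
Log2 change, IAA over untreated, of each of the 33 genes with its 95% interval (limma, n = 2 against 2) at the deposited scaling, filled where the test was passed, with crosses for median-of-ratios scaling and a dashed line at the median of all tested genes. Msmo1 lies lowest at -0.61 and Ggps1 highest at 0.18 at the deposited scaling, and the other factors move every gene up by about 0.10.

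Both SREBP genes fell under both scalings, as the plot of log2 changes shows. Srebf1, at chromosome 11, 60199089 to 60222581 (minus strand), was at 2759 and 2572 untreated and at 2092 and 2020 with IAA (-0.37, SE 0.05, adjusted p = 2.25e-06). Srebf2 was at 4951 and 5066 against 4313 and 4298 (-0.22, SE 0.04, adjusted p = 6.63e-05). With median-of-ratios factors the changes were -0.27 and -0.12, both called. The ratio of Srebf1 to Srebf2 within a library, in which any scaling cancels, was 0.557 and 0.508 untreated and 0.485 and 0.470 with IAA. These ratios do not overlap, and their log2 change was -0.16.

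Of the genes that retain or release SREBP, Scap and Insig2 did not pass the test at the deposited scaling and Insig1 did. Scap, the escort, was at 634 and 585 against 599 and 581, and Insig2, a retention factor, at 260 and 253 against 258 and 233. Both overlap between the groups (-0.05, adjusted p = 0.630, 95% interval -0.19 to 0.10, and -0.06, adjusted p = 0.634, 95% interval -0.27 to 0.14), and both signs turn under median-of-ratios scaling (0.05 and 0.03). Insig1, the retention factor that is itself an SREBP target, was at 1897 and 1974 against 1793 and 1566 and fell by 0.21 (SE 0.06, adjusted p = 0.00541). The lower of its IAA values weighs on that call, which was lost without IAA replicate 2 (-0.11, adjusted p = 0.193, unrounded values) and under median-of-ratios scaling (-0.11, adjusted p = 0.0629). Over the 5 SREBP control genes 3 fell and 0 rose (median -0.21), or 2 fell and 0 rose under median-of-ratios scaling. As shares called lower these are 60% and 40%, beside 28.9% and 20.5% of all tested genes.

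Of the 3 sterol transport genes 1 fell under both scalings and 0 rose. That share of 33.3% was near the 28.9% of all tested genes called lower at the deposited scaling (20.5% under median-of-ratios scaling). Stard4, a cytosolic sterol carrier and SREBP target, was at 884 and 838 untreated and at 653 and 595 with IAA (-0.46, SE 0.07, adjusted p = 1.24e-05; -0.36 under median-of-ratios scaling). Npc1, the membrane protein that exports cholesterol from lysosomes, was at 591 and 567 against 523 and 529 (-0.14, adjusted p = 0.117, 95% interval -0.28 to 0.00). Npc2, the soluble protein that hands cholesterol to it, was at 1870 and 1907 against 1835 and 1780 (-0.06, adjusted p = 0.290, 95% interval -0.16 to 0.03), and its sign turns under median-of-ratios scaling (0.04). Stard4 thus lay well below its untreated values, while the lysosomal pair lay within 10% of theirs.

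All 6 lipogenic genes fell at the deposited scaling (median -0.26), and 3 of the 6 fell under median-of-ratios scaling. That is 100% and 50%, beside 28.9% and 20.5% of all tested genes called lower. Scd1, a stearoyl-CoA desaturase at chromosome 19, 44394455 to 44407879 (minus strand), was at 5055 and 4962 against 3661 and 3698 (-0.44, SE 0.04, adjusted p = 1.49e-08). Acaca, the acetyl-CoA carboxylase that makes malonyl-CoA, was at 1363 and 1475 against 1061 and 1060 (-0.42, SE 0.05, adjusted p = 4.26e-06). Lpin1, a phosphatidate phosphatase, was at 747 and 853 against 588 and 651 (-0.37, SE 0.07, adjusted p = 4.48e-04). These are the 3 that also fell under median-of-ratios scaling (-0.34, -0.32 and -0.27).

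The other lipogenic genes had smaller falls. Fasn, the fatty acid synthase, was at 8344 and 8828 against 7742 and 7618 (-0.16, SE 0.03, adjusted p = 8.09e-04). Acly, which makes cytosolic acetyl-CoA from citrate, was at 5633 and 5985 against 5355 and 5320 (-0.12, SE 0.04, adjusted p = 0.0118). Scd2, the neighbouring desaturase at 44293674 to 44306864 (plus strand), was at 19194 and 19960 against 18767 and 18324 (-0.08, SE 0.03, adjusted p = 0.0333). With median-of-ratios factors none of these 3 calls held (Fasn -0.06, adjusted p = 0.104; Acly -0.02, adjusted p = 0.654) and Scd2 turned to 0.02 (adjusted p = 0.477). On unrounded values the call of Acly was lost without untreated replicate 2 or IAA replicate 2 (adjusted p = 0.118 and 0.0668), and that of Scd2 without untreated replicate 2, IAA replicate 1 or IAA replicate 2 (adjusted p = 0.172, 0.0690 and 0.288).

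Ratios of genes within a library do not depend on the scaling. The ratio of Scd1 to Scd2 was 0.263 and 0.249 untreated and 0.195 and 0.202 with IAA, a log2 change of -0.37. The ratio of Acaca to Acly was 0.242 and 0.246 against 0.198 and 0.199 (-0.30), and that of Msmo1 to Npc2 was 1.158 and 1.182 against 0.747 and 0.861 (-0.55). Insig1 to Insig2 was 7.30 and 7.80 against 6.95 and 6.72 (-0.14). In each of these ratios both IAA values lay below both untreated values. With 2 libraries a group the smallest exact permutation p is 0.333, so these ratios, of pairs picked with the values known, are given without a call.

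**Figure D3:**
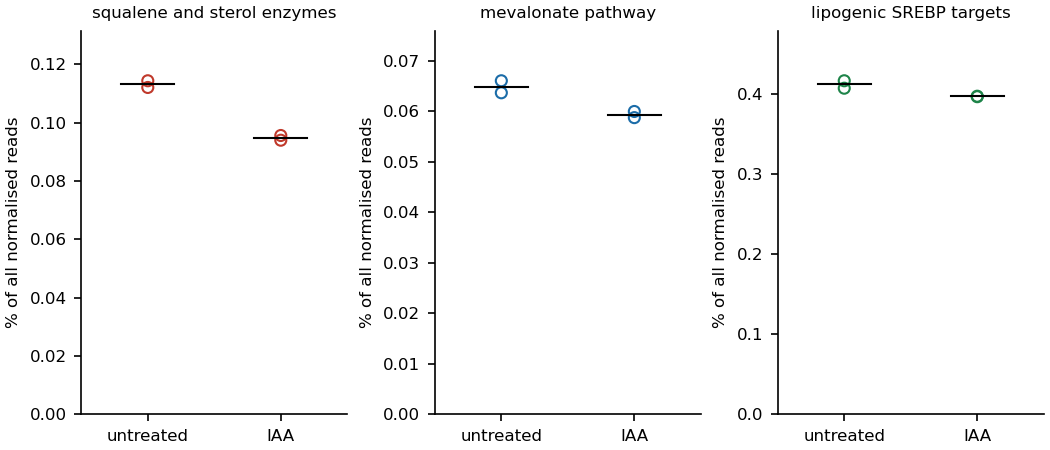
Share of all normalised reads in a library, in percent, taken by the squalene and sterol, mevalonate and lipogenic genes, with 1 point per library and a line at the group mean (n = 2, axes from 0). The 11 enzymes from squalene to cholesterol take a mean of 0.113% untreated and 0.0948% with IAA.

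Together the 33 genes took 0.729% and 0.734% of all normalised reads without IAA, against 0.684% and 0.681% with it. The means were 0.731% ± 0.004 and 0.683% ± 0.002 (SD, n = 2 each), so the IAA share was 0.933 of the untreated one. By role, and as the plot of shares shows for 3 of them, the 11 enzymes from squalene to cholesterol took 0.837 of their untreated share, the mevalonate enzymes 0.915, the SREBP control genes 0.911, the transport genes 0.955 and the 6 lipogenic genes 0.964. Scd2, with a log2 change of -0.08, weighs heavily on the lipogenic share. It held 19194 and 19960 of the 40336 and 42063 untreated normalised reads of the 6 genes, whose median log2 change was -0.26. Ggps1 took 1.21 times its untreated share. With library totals as factors, the transport genes changed by -0.36 (Stard4), -0.03 (Npc1) and 0.04 (Npc2). No role's shares overlapped between the groups. Single genes often did not either: at the deposited scaling 45.6% of all tested genes were lower and 22.5% higher without overlap.

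Levels compared between genes are given per kilobase of exon, as normalised reads (GENCODE M21 gene models). Scd2 was highest at 3583 untreated and 3394 with IAA, followed by Acly at 1100 and Scd1 at 1024 (752 with IAA). Among sterol genes Srebf2 (697), Hmgcs1 (630), Insig1 (626) and Acat2 (524) were highest, and Fdps at 12.95 was lowest. Over the 33 genes the log2 change had a Spearman rho of 0.06 with the level per kilobase, 0.09 with exonic length and 0.14 with gene span, and over 14919 tested genes rho with span was -0.05. These are descriptions across genes of the same 4 libraries.

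Some transcripts have near-identical copies, among which the authors' counting could split or drop reads. By alignment (at least 95% identity over at least 200 bases) 10 of the 33 had a copy. Acat2 shares 1477 bases at 97.7% with Acat3, Acaca shares 6118 bases at 99.2% with the pseudogene Gm5182 (a mean of 47.75 normalised reads), Fdft1 shares 1249 bases with the pseudogene Gm6781, and Fdps shares up to 1066 bases with pseudogenes. Acat2 also shares 445 bases at 98.7% with Tcp1 (a mean of 3898.75 normalised reads). Idi1 shares 684 bases at 100% with the pseudogene Gm13502, and Ggps1 shares 903 bases at 97.2% with the pseudogene Gm5630. Msmo1 and Dhcr7 share at most 203 and 227 bases with other genes. The values of all these genes are uncertain to that extent. Scd1 and Scd2 share 623 bases at 95.5%. Exons of 12 genes overlap another gene, most for Fdps with Gm43738 (26.7% of its exonic length) and Fdft1 with Ctsb on the opposite strand (18.3%), and the sources used here do not give the strand setting of the counting.

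**Figure D4:**
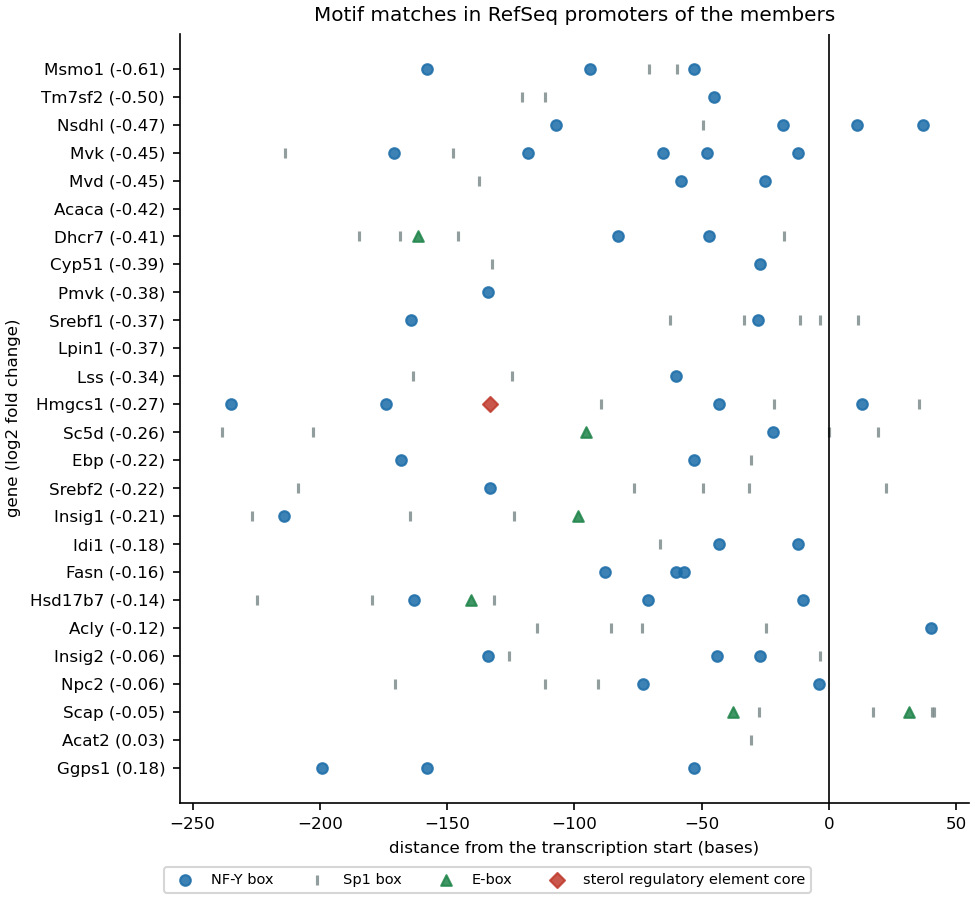
Positions of motif matches, in bases from the transcription start, in the promoter windows of the 26 genes, ordered by log2 change (in brackets) from Msmo1 at the top to Ggps1, with the windows of a gene with several starts laid over each other. NF-Y boxes occur in 22 of the 26, from the most lowered gene to Ggps1, and Hmgcs1 alone has the sterol regulatory element core.

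In the promoter windows an NF-Y box, CCAAT, was found on either strand in 22 of the 26 genes (84.6%), against 43.4% of 10717 tested genes with a window, 41.1% of all 27025 genes with a window and 37.4% of 32851 windows. By window it was 23 of 34 (67.6%), since some genes have several starts. The genes without one were Acaca, Acat2, Lpin1 and Scap. An Sp1 box, GGGCGG, was found in 21 of 26 (80.8%) against 68.9% of tested genes and 35.7% of windows. An E-box, CACGTG, was found in 5 (Dhcr7, Hsd17b7, Insig1, Sc5d and Scap; 19.2% against 11.7% of tested genes and 7.15% of windows), and a TATA box, TATAAA, in Scap alone (8.43% of tested genes, 13.6% of windows). The sterol regulatory element core was found in Hmgcs1 alone, as TCACCCCAC from -137 to -129 (1.46% of tested genes, 1.24% of windows). These are matches of letters in a window, not measured sites.

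Genes with several matches and a gene with none both fell, and other genes with several matches were not called lower. Mvk has 5 NF-Y boxes in the stretch and Mvd has 2, and both genes had a log2 change of -0.45. Lpin1 has no match in its window and fell by 0.37. Fasn, whose boxes from -62 to -58 and from -59 to -55 overlap, fell by 0.16, and Hmgcs1, with the sterol regulatory element core, by 0.27. Of the 20 genes called lower that have a window, 18 had an NF-Y box and 16 an Sp1 box, beside 22 and 21 of all 26. Of those not called lower, Ggps1 (0.18), Hsd17b7 (-0.14), Insig2 (-0.06) and Npc2 (-0.06) have several NF-Y boxes in their windows. Acat2 and Scap, also not called lower, have an Sp1 box and no NF-Y box. The window of Acaca lies inside the annotated gene, next to an internal exon, and the Lpin1 window is at the most upstream of several annotated starts.

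Further genes of the pathways around the 33 were counted from 9 lists. Of 17 tested genes that supply acetyl-CoA, malonyl-CoA and NADPH, 11 fell and 1 rose under both scalings, with a median of -0.36. Acss1, a mitochondrial acetyl-CoA synthetase, was at 205 and 177 against 92 and 81 (-1.13, SE 0.14, adjusted p = 1.92e-06). Acss2, its cytosolic relative and an SREBP target, was at 110 and 90 against 50 and 55 (-0.91, adjusted p = 3.92e-04), and the malonyl-CoA decarboxylase Mlycd fell by 0.54. These falls of Acss1 and Acss2 exceed that of any of the 33 genes.

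In fatty acid elongation and desaturation 8 of 15 tested genes fell and 0 rose (7 and 0 under median-of-ratios scaling, median -0.29). The elongases Elovl1 and Elovl2 fell by 0.43 and 0.42, and the desaturase Fads1 was at 1458 and 1417 against 1119 and 1092 (-0.38, adjusted p = 7.56e-06). Of 21 tested genes of prenylation, dolichol and ubiquinone, 11 fell and 3 rose (6 and 4 under median-of-ratios scaling, median -0.16). Trit1, which puts an isopentenyl group on tRNA, fell by 0.68, as did Coq7, a hydroxylase of ubiquinone synthesis, and Pdss2, a subunit of the enzyme that makes its side chain, fell by 0.54.

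Of 21 tested genes of SREBP processing and trafficking 8 fell and 2 rose with a median of 0.06 (38.1% and 9.52%, beside 28.9% and 11.1% of all tested genes), and under median-of-ratios scaling 4 fell and 7 rose. Mbtps2, the site-2 protease that frees SREBP, fell by 0.30, and the ubiquitin ligase Rnf145 by 0.24. Of 25 genes of nutrient control of SREBP 3 fell and 3 rose (2 and 9 under median-of-ratios scaling, median 0.01). Nfyc, a subunit of NF-Y, was at 384 and 397 against 538 and 502 and rose by 0.41 (SE 0.08, adjusted p = 2.17e-04), and the coactivator Crebbp was at 907 and 880 against 1207 and 1164 (0.41, adjusted p = 7.40e-06). The AMP-activated kinase subunit Prkaa2 fell by 0.33.

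**Figure D5:**
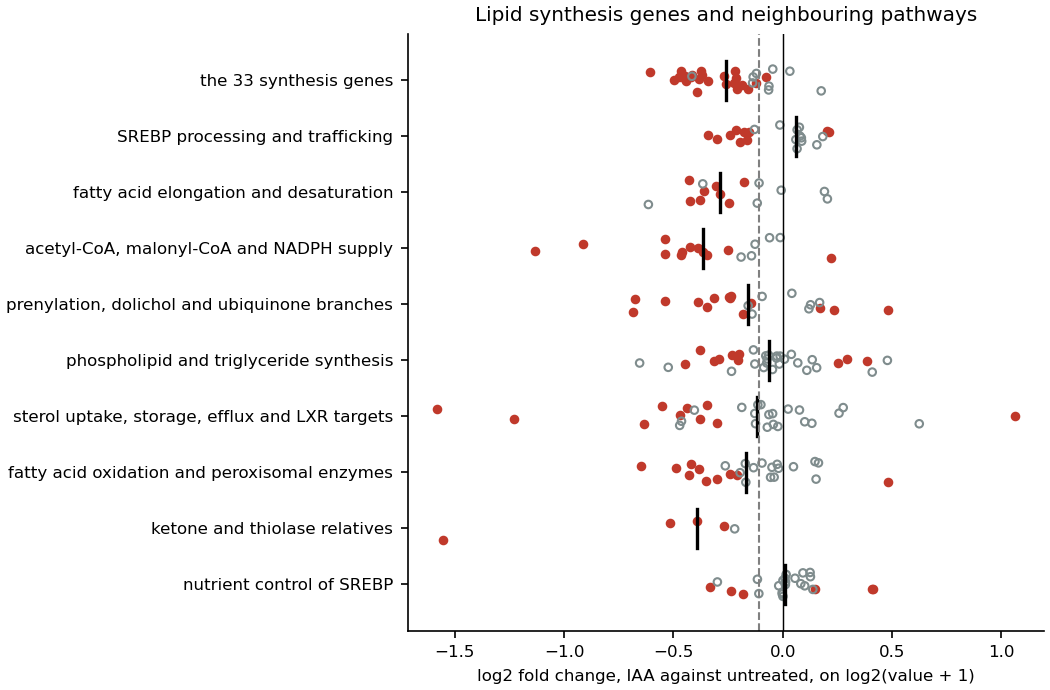
Log2 change, IAA over untreated, of each tested gene of the 33 and of the 9 further lists at the deposited scaling, 1 point per gene, filled where called (limma adjusted p under 0.05), with a bar at each list's median and a dashed line at the median of all tested genes (-0.11). The 33 genes have a median of -0.26 and SREBP processing one of 0.06.

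Among 30 tested genes of sterol uptake, storage and efflux, 9 fell and 1 rose (9 and 3 under median-of-ratios scaling, median -0.12), as the plot of the further lists shows. Lrp8, a lipoprotein receptor, was at 220 and 211 against 86 and 97 (-1.23, SE 0.13, adjusted p = 2.93e-07). Cyp7b1, an oxysterol hydroxylase, was at 15 and 16 against 36 and 31 and rose by 1.06 (adjusted p = 0.00726), and the oxysterol-binding relative Osbpl5 was at 18 and 16 against 8 and 3 (-1.58, adjusted p = 0.0120). Both are low genes, whose changes this log scale understates.

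Of 33 genes of phospholipid and triglyceride synthesis, 7 fell and 3 rose (5 and 7 under median-of-ratios scaling, median -0.06). Agpat4, an acyltransferase, fell by 0.45 and the phosphatidylserine synthase Ptdss2 by 0.38, while Pcyt1a, the rate-limiting enzyme of phosphatidylcholine synthesis, rose by 0.39. Of 25 genes of fatty acid oxidation 9 fell and 1 rose (7 and 5 under median-of-ratios scaling, median -0.17). The short-chain dehydrogenase Acads was at 873 and 907 against 582 and 553 (-0.65, adjusted p = 1.47e-07), and Cpt2, a mitochondrial carnitine acyltransferase, fell by 0.49.

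In ketone metabolism 4 of 5 tested genes fell and 0 rose (3 and 0 under median-of-ratios scaling, median -0.39). Bdh2, a hydroxybutyrate dehydrogenase relative, was at 64 and 75 against 21 and 25 (-1.56, SE 0.23, adjusted p = 2.36e-05), and Oxct1 and Bdh1, enzymes of ketone body use, fell by 0.52 and 0.39. Every gene named from these 9 lists was also called in the same direction under median-of-ratios scaling. Beside the 28.9% of tested genes called lower, the share was 72.7% in the 33 genes, 80% in ketone metabolism, 64.7% in acetyl-CoA supply, 53.3% in elongation, 52.4% in prenylation, 38.1% in SREBP processing, 36% in fatty acid oxidation, 30% in sterol uptake, 21.2% in phospholipid synthesis and 12% in nutrient control. Under median-of-ratios scaling, where 20.5% of tested genes were lower, the share was 48.5% in the 33 genes, below the 64.7% of acetyl-CoA supply and the 60% of ketone metabolism, so a high share of lowered genes was not particular to the 33.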

How the data were processed

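Poly(A) RNA-seq libraries of V6.5 mouse embryonic stem cells, 2 untreated and 2 with IAA, were grouped by their titles. The submitters' processing notes list STAR, Bowtie2, featureCounts, cutadapt 1.18, DESeq2, SAMtools and deepTools, and as builds dm6 and mm10, with no role for any. The annotation and the strand setting are not stated there. The library columns the authors deposited are scores: read counts divided by a size factor per library (0.88, 0.87, 0.98 and 0.95, worked out from the values) and rounded, called normalised read counts here. The authors' mean column is a signal (these values before rounding, averaged over the 4 libraries), from which whole reads were recovered for 100% of genes (tolerance 0.001). The authors also deposited log2 fold changes with standard errors, a statistic headed stat, p-values and adjusted p-values, per the file headers. Drosophila S2 cells served as spike-in, per the labels' design text. Whether the factors come from it is not stated. Median-of-ratios factors on the recovered reads were 0.984, 0.988, 1.04 and 0.990, against deposited factors scaled to 0.958, 0.947, 1.07 and 1.03.

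Because the values are scaled and rounded scores, no count test was the main test. Genes with a mean of at least 10 (14928 of them, 15354 being dropped) entered limma on log2(value + 1), version 3.58.1 (R 4.3.3, empirical Bayes trend), with Benjamini-Hochberg adjustment over all of them and calls at an adjusted p under 0.05. Fold changes on this scale understate changes of low genes. Alternatives were the scaling, filter, pseudocounts of 0.5 and 5, an adjusted p of 0.01, leaving out each library, the replicate block, limma-voom, and the authors' tests. The members, lists and named genes (all 33 members, Polr2c, and per further list the 3 called genes with the largest change) were chosen with earlier results of these data known. Some genes that this rule names are not reported here. Gene models are GENCODE M21 (GRCm38), which held 30214 of the table's IDs. Copies were found with BLAST 2.17.0, and promoters are RefSeq's (GRCm38.p6).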

Additional observations from a re-analysis of the deposited data

How the results depend on the processing

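At the deposited scaling 5962 genes were called. With the planned fits on rounded values the number was 817 with no filter on low genes (4 of the 33 genes lower) and ranged from 0 to 5347 over all fits, rounded or not, that left out 1 library. With 3 libraries and rounded values 0 genes were called (limma; 4734 to 5070 at an unadjusted p under 0.05, with 17 to 21 of the 33), whereas unrounded values, tried after seeing the data, gave 4829 to 5347, so the loss follows the rounding. The genes called lower among the 33 ranged from 0 to 22 over these fits (19 to 22 unrounded), those called higher from 0 to 1, and the median from -0.29 to -0.23. On unrounded values 18 of the 24 calls held in all 4 such fits. Library totals as factors, like median-of-ratios factors, gave 16 lower, 2 higher and a median of -0.16. The authors' deposited table calls 1384 genes, 11 of the 33 lower. An adjusted p of 0.01 gave 4097 genes and 19 lower. A mean of at least 100 (5257 genes), pseudocounts of 0.5 (5951) and 5 (6010), unrounded values (6338) and voom (6233) stayed within 1.5 times.

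Signs turned only for genes near 0. Over the fits without 1 library, rounded or not, Acat2 ranged from -0.039 to 0.1036 (-0.0023 without untreated replicate 1, -0.002 unrounded). Scap was 0.0546 under median-of-ratios scaling, 0.0584 with library totals and, over fits without 1 library, ranged from -0.1038 to 0.0121 on rounded and from -0.1039 to 0.012 on unrounded values. Insig2 was 0.0347 and 0.0384 with these factors and ranged from -0.1379 to 0.0085 on rounded and from -0.1405 to 0.0092 on unrounded values. Npc2 was 0.0371 and 0.0409 and Scd2 0.0229 and 0.0266 with these factors. Median-of-ratios factors move every gene up by about 0.10, so small negative changes turn sign with them. The cause of the turns in fits without 1 library was not tested.

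Deviations of same-numbered libraries correlated at 0.002 over tested genes and at -0.065 over genes with a mean of at least 100. Such correlations cannot show whether the libraries were prepared in pairs. With the replicate block 5958 genes and 22 of the 33 (lower) were called, losing Idi1 (adjusted p = 0.0574) and Scd2 (0.137). Fdps had the lowest values of the 33, at 39 to 59 normalised reads. The part of depth, or of its near-identical copies, in these low values was not tested.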
